A study of Mus musculus with 10 samples.

Results

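Genes with few published functions were examined in livers of tumour-bearing mice with and without cachexia, the wasting syndrome of cancer. They were Nrbp2, Tlcd2, Tcim, P2ry4, Gm9847, D630024D03Rik and Gm27252. These 7 genes, of 43629 in the count table, had been picked because their levels did not overlap between cachectic and non-cachectic livers, and all 7 were among the 14143 genes tested. Non-overlap was found for 1000 of the tested genes, or 7.07%, with 3.95% higher and 3.13% lower in cachectic livers. The 7 were chosen by name from such genes, so their separation is a description with no test, and other genes meet the same criterion.

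All 10 livers came from adult male KL mice, an inducible lung cancer model that carries Lkb1 flox/flox alleles and had been backcrossed to FVB. Lung tumours were started in every mouse by intranasal adenovirus encoding Cre recombinase (Ad5CMV-Cre), and no tumour-free mouse was included. Recombination in liver cells was not examined. The 5 non-cachectic mice (NCACS, mice 11 to 15) had weight changes of −4, −8, −11, −3 and −14%. The 5 cachectic mice (CACS, mice 16 to 20) had weight changes of −32, −29, −33, −30 and −29%. RNA was measured by single-end sequencing of poly(A) libraries, 1 per mouse, with 31459179 to 40746178 counted reads per liver. Levels are given as CPM, counts scaled to the TMM-adjusted library total, and as TPM, which also divides by exonic length, where genes are compared with each other.

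Hepatocyte markers fitted the label. On raw library totals, 6 hepatocyte genes summed to 71101 to 114078 CPM in NCACS and 116094 to 132873 CPM in CACS livers. On this scale the groups did not overlap, although none of the 6 passed the test. Most of that sum was Alb, which in TMM-scaled CPM was at 68587 ± 18456 (SD, n = 5) and 92841 ± 9258. On the TMM scale the groups overlapped in Alb, with NCACS livers up to 88873 and CACS livers from 82140 CPM. Apoa1 and Cps1 also had higher means in CACS livers, whereas Ttr (log2 −0.06), Fgb (−0.07) and Serpina1a (0.01) were near 0. On the raw scale, summed markers of Kupffer cells, sinusoidal endothelium, stellate cells, cholangiocytes, lymphocytes, neutrophils, erythroid cells and lung epithelium overlapped between the groups. In these lists, only the Kupffer cell gene Cd5l passed the test (log2 fold change −0.90 ± 0.207 (SE), adjusted p = 0.0374, Benjamini-Hochberg adjusted in the quasi-likelihood test of edgeR). NCACS 15 stood apart in Dbp, a clock output gene with a strong daily rhythm in liver, at 1.27 CPM against 52.1 to 82.9 CPM in the other NCACS livers. CACS livers 16 to 20 were at 18.8, 34.3, 20.7, 58.8 and 19.2 CPM, so that all but CACS 19 were below NCACS 11 to 14. The parts of the hepatocyte marker sum, Cd5l and Dbp in the results below were not tested. In bulk RNA, a change in the number of cells of a type and a change in RNA per cell cannot be told apart.

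The list holds 4 protein-coding genes, 1 processed pseudogene and 2 noncoding RNAs. Nrbp2 encodes a pseudokinase, a protein with a kinase fold that lacks normal catalytic residues, of a family that binds TSC22D proteins and is linked to WNK kinase signalling. Tcim encodes a small protein that binds Chibby, an inhibitor of β-catenin, and so can favour Wnt target genes. Tlcd2 encodes a membrane protein with a TLC domain, a fold shared with ceramide synthases, and its family limits the entry of polyunsaturated fatty acids into membrane phospholipids. P2ry4 encodes a G-protein-coupled receptor for extracellular nucleotides, among them UTP. A processed pseudogene is a copy of a spliced messenger RNA inserted elsewhere in the genome, and its reads can be hard to tell from those of its parent gene.

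Sequences of 3 members are printed here, and that of Gm9847 bears on how its counts are read. The 599 bases of Gm9847 aligned without a gap to the transcript of Socs2, which encodes a suppressor of cytokine signalling that restrains growth hormone signalling. The copies differed at 3 bases (99.5% identity), written with the Gm9847 base first, the position counted from 1 at the 5′ end of Gm9847, and the Socs2 base last. The 41-base stretches around A102G, T254C and C333T are shown 5′ to 3′ from the GENCODE M21 transcripts (GRCm38), with the differing base in capitals. A read that lies wholly inside the 599 bases can separate the genes only if it covers one of these bases.
Gm9847 82 to 122: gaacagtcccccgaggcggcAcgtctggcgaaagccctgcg
Socs2, same stretch: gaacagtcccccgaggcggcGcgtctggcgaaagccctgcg
Gm9847 234 to 274: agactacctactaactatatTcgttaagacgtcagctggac
Socs2, same stretch: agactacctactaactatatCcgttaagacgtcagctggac
Gm9847 313 to 353: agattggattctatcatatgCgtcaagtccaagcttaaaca
Socs2, same stretch: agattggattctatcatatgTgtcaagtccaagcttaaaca

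Promoter windows of 250 bases before to 50 after the start were present for 4 members in the RefSeq table (GRCm38.p6), and not for Nrbp2, Tcim and Gm9847. RefSeq starts can differ from the GENCODE starts printed below: the Tlcd2 window lies inside the GENCODE gene body, and the Gm27252 window ends before the GENCODE start. They were searched on both strands for the E-box CACGTG, the D-box TTATGNAA, the STAT motif TTCNNNGAA, the forkhead motif GTAAACA, the CRE TGACGTCA and the full palindromic glucocorticoid response element. The D630024D03Rik window (chr11:31824498-31824797, reverse strand) held CACGTG at positions −204 and −29 from the start. Over all 32851 windows, 7.15% held this motif and 0.594% held it at least 2 times. The Gm27252 window (chr7:63896134-63896433, forward strand) held TTCNNNGAA at position −196 from the start, a motif found in 8.30% of windows. The Tlcd2 and P2ry4 windows held none of the 6 motifs as written. STAT motifs with a spacer of another length were not searched in any window. The shares of all windows with the remaining motifs were 3.38% for the D-box, 3.65% for the forkhead motif, 1.79% for the CRE and 0.00913% for the glucocorticoid response element. Both windows with a match are shown 5′ to 3′ with the motif in capitals. A match describes letters only and is not a binding site.
D630024D03Rik: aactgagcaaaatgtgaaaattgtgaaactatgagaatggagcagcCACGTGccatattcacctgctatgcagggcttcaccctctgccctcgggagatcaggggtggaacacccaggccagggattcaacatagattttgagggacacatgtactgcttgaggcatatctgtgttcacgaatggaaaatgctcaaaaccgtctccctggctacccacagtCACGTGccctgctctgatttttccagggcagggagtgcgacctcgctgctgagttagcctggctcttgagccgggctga
Gm27252: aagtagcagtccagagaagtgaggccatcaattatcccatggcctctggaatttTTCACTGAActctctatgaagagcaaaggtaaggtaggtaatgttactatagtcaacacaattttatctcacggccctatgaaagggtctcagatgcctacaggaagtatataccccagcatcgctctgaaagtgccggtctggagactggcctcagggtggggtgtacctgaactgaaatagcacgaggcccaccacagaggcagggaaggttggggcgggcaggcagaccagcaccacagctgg

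In all, 4 members were higher in CACS livers (Nrbp2, Tcim, Gm9847 and Gm27252) and 3 were lower (Tlcd2, P2ry4 and D630024D03Rik). Group means differed by 2.18-fold for P2ry4 to 6.75-fold for Gm9847. The distance between the nearest livers of the groups was narrower. It was 2.45-fold for Gm9847, 2.19-fold for Tlcd2, 2.06-fold for Nrbp2, 2.01-fold for Tcim, 1.86-fold for D630024D03Rik, 1.71-fold for P2ry4 and 1.39-fold for Gm27252. Abundance differed widely among the members: the mean level of Nrbp2 exceeded that of 93.3% of tested genes, and that of D630024D03Rik exceeded that of 20.7%.

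**Figure D1:**
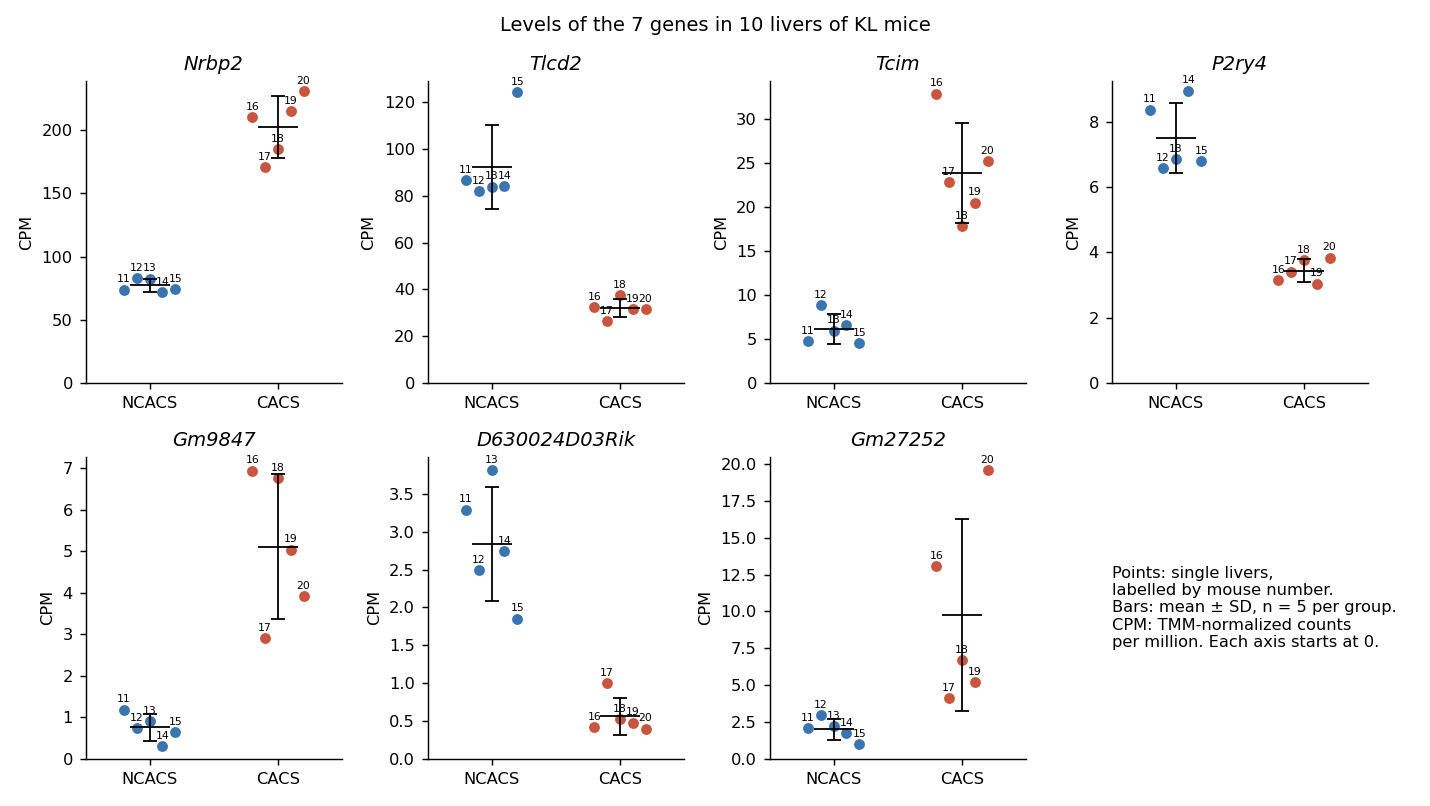
TMM-scaled CPM of the 7 genes in each of the 10 livers, 1 panel per gene with its axis from 0, points labelled by mouse number, and bars at the group mean ± SD (n = 5). In every panel the NCACS and CACS livers lie apart, with the narrowest gap between nearest livers, 1.39-fold, in Gm27252 and the widest, 2.45-fold, in Gm9847.

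Nrbp2 (ENSMUSG00000075590) lies on the reverse strand at chr15:76085518-76091627 (GRCm38, as for all genes here). Its level was 74.0, 82.8, 82.7, 71.8 and 74.5 CPM in NCACS livers 11 to 15, and 210, 170, 185, 215 and 231 CPM in CACS livers 16 to 20. Every NCACS liver lay within a narrow band, and even the lowest CACS liver, 17, was above all of them. The means of 77.2 ± 5.19 CPM (SD, n = 5) and 202 ± 24.3 CPM gave a log2 difference of 1.39 ± 0.102 (SE). The coefficient of variation was 6.73% among NCACS livers, where counting alone gives 1.96%, and 12% among CACS livers. With all NCACS livers Nrbp2 was the least variable member, but without NCACS 15 the SD of Tlcd2 was smaller, 1.92 CPM on a mean of 84.1 CPM against 5.75 on 77.8 for Nrbp2. An annotated antisense gene, Gm48952, overlaps 132 exonic bases of Nrbp2, but only 0.354% of 100-base windows of the Nrbp2 transcript lie inside it.

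Tcim (ENSMUSG00000056313) has a single exon on the reverse strand at chr8:24437180-24438984. Its level was 4.75, 8.86, 5.95, 6.62 and 4.57 CPM in NCACS livers 11 to 15, and 32.8, 22.8, 17.9, 20.5 and 25.2 CPM in CACS livers 16 to 20. The highest NCACS liver, 12, remained below the lowest CACS liver, 18. Mean levels were 6.15 ± 1.74 CPM (SD, n = 5) and 23.8 ± 5.72 CPM, a 3.87-fold difference (log2 1.95 ± 0.210 (SE)). The relative spread was 28.3% in NCACS and 24.0% in CACS livers, each well over the 7.18% and 3.54% that counting alone gives. An antisense gene, Gm26714, covers 14% of the 100-base windows of Tcim and had 1 to 30 counts per liver, against 148 to 1314 for Tcim.

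Tlcd2 (ENSMUSG00000038217) lies on the forward strand at chr11:75461715-75470899. Its level was 86.7, 82.0, 83.9, 84.0 and 124 CPM in NCACS livers 11 to 15, and 32.6, 26.6, 37.4, 31.5 and 31.5 CPM in CACS livers 16 to 20. The NCACS livers 11 to 14 were nearly equal, NCACS 15 was above them, and all CACS livers were far below. The CACS mean of 31.9 ± 3.85 CPM was, against 92.1 ± 17.9 CPM (SD, n = 5), 2.89-fold lower in cachexia (log2 −1.53 ± 0.135 (SE)). Without NCACS 15, which also stood apart in Dbp, the NCACS mean was 84.1 ± 1.92 CPM (n = 4) and the log2 difference −1.39. Tlcd2 shares 206 exonic bases on the same strand with Mir22hg, the host transcript of miR-22, and 5.36% of its 100-base windows lie inside that gene. Mir22hg, at 39.6 ± 6.68 and 53.6 ± 14.7 CPM, did not pass the test (adjusted p = 0.198, Benjamini-Hochberg adjusted in the quasi-likelihood test of edgeR).

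P2ry4 (ENSMUSG00000044359) lies on the reverse strand at chrX:100590154-100594869. Its level was 8.37, 6.57, 6.86, 8.94 and 6.79 CPM in NCACS livers 11 to 15, and 3.15, 3.41, 3.75, 3.04 and 3.84 CPM in CACS livers 16 to 20. All NCACS livers were above all CACS livers, and neither group held a liver far from the rest. Means of 7.51 ± 1.07 CPM (SD, n = 5) and 3.44 ± 0.353 CPM gave a log2 difference of −1.13 ± 0.138 (SE). In CACS livers the spread of 10.3% was close to the 9.06% that counting alone gives, from 108 to 297 counts per liver over both groups. None of its 100-base windows is shared with another annotated gene.

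Gm9847 (ENSMUSG00000050974), on the forward strand at chr12:14494561-14495159, is annotated as a processed pseudogene. It had 40, 30, 28, 10 and 21 counts in NCACS livers 11 to 15, and 278, 111, 207, 179 and 137 counts in CACS livers 16 to 20. In CPM these were 1.19, 0.747, 0.906, 0.301 and 0.649 against 6.95, 2.91, 6.76, 5.04 and 3.92. CACS 17 was the lowest cachectic liver and still above NCACS 11, the highest non-cachectic one. The means of 0.758 ± 0.327 CPM (SD, n = 5) and 5.12 ± 1.76 CPM gave the largest mean difference of the 7 members (log2 2.75 ± 0.348 (SE)).

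Socs2 itself, on chr10, was at 14.4, 9.16, 8.99, 4.28 and 8.09 CPM in NCACS livers 11 to 15 and 82.5, 47.1, 79.9, 54.5 and 47.1 CPM in CACS livers 16 to 20. The livers of each group fell in nearly the same order as for Gm9847, with NCACS 14 lowest and CACS 16 highest for both genes. The log2 difference of Socs2 was 2.79 ± 0.292 (SE), against 2.75 for Gm9847. Socs2 passed the test (adjusted p = 0.00203, Benjamini-Hochberg adjusted in the quasi-likelihood test of edgeR). Its call held in all 10 fits with a liver left out and in 7 of 7 other settings. The genes may share reads, so the Socs2 result is not independent of the choice of Gm9847. Gm9847 counts were 8.21, 8.15, 10.1, 7.04 and 8.02% of Socs2 counts in NCACS livers 11 to 15. In CACS livers 16 to 20 they were 8.42, 6.18, 8.46, 9.26 and 8.32%. The ratio was therefore 8.30 ± 1.10% (SD, n = 5) and 8.13 ± 1.15%, with overlapping groups. After each gene was centred on its group means, the log2 levels of the 2 genes had a correlation of 0.96 over the 10 livers, which share depth and possibly reads. Of the 500 windows of 100 bases in Gm9847, 221 (44.2%) held none of the 3 differing bases printed above. How reads matching both places were counted is not given in the sources used here, and FVB alleles at these bases may differ from the reference, so the source of the Gm9847 reads was not tested.

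**Figure D2:**
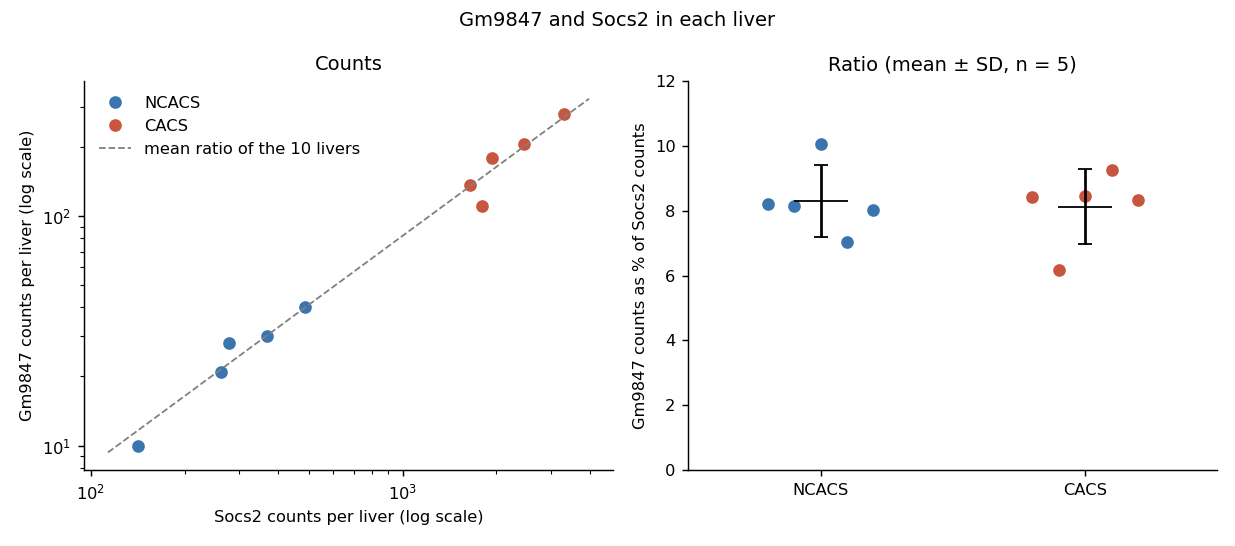
Left, Gm9847 counts against Socs2 counts in each liver on log axes, with a dashed line at the mean ratio of the 10 livers; right, Gm9847 counts as a percentage of Socs2 counts, with mean ± SD (n = 5 per group). The livers of both groups lie near the line, with ratios between 6.18 and 10.1% in all livers.

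D630024D03Rik (ENSMUSG00000085772) is a long intergenic noncoding RNA of 9 exons on the reverse strand at chr11:31790113-31824524. Its level was 3.29, 2.49, 3.82, 2.74 and 1.85 CPM in NCACS livers 11 to 15, and 0.425, 0.997, 0.522, 0.479 and 0.401 CPM in CACS livers 16 to 20. NCACS 15 was the lowest non-cachectic liver and CACS 17 the highest cachectic one, and the groups stayed apart. Mean levels of 2.84 ± 0.753 CPM (SD, n = 5) and 0.565 ± 0.246 CPM differed by 5.03-fold (log2 −2.32 ± 0.299 (SE)). CACS livers held 14 to 38 counts, for which counting alone gives a coefficient of variation of 23.6%, against 43.6% measured. The 2 CACGTG matches printed above lie in the window of this gene.

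Gm27252 (ENSMUSG00000098708) is a processed transcript of 5 exons on the forward strand at chr7:63896533-63899698, inside the body of Klf13 on the opposite strand but with no shared exonic base. Its level was 2.11, 2.99, 2.20, 1.75 and 0.988 CPM in NCACS livers 11 to 15, and 13.1, 4.14, 6.72, 5.21 and 19.6 CPM in CACS livers 16 to 20. The cachectic livers varied widely, with CACS 20 at 4.72 times CACS 17, and CACS 17 was only 1.39-fold above NCACS 12. The NCACS mean was 2.01 ± 0.727 CPM (SD, n = 5) against 9.74 ± 6.49 CPM in cachexia (log2 2.27 ± 0.439 (SE)). Its spread of 66.6% among CACS livers was the largest of any member in either group, where counting alone gives 6.32%. Leaving out CACS 20 lowered the log2 difference to 1.86.

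Per length, Tlcd2 was the most abundant member in NCACS livers at 114 ± 21.1 TPM (SD, n = 5) and Nrbp2 the next at 47.5 ± 4.25 TPM. In CACS livers the order was Nrbp2 at 128 ± 12.7 TPM and then Tlcd2 at 40.6 ± 3.58 TPM. The other NCACS levels were 8.23 ± 2.71 TPM for Tcim, 6.74 ± 2.65 for Gm27252, 4.32 ± 1.04 for D630024D03Rik, 4.05 ± 0.590 for P2ry4 and 3.0 ± 1.23 for Gm9847, each within the spread of its neighbour in this order. In CACS livers they were 33.1 ± 21.2 TPM for Gm27252, 32.6 ± 7.76 for Tcim, 20.9 ± 6.77 for Gm9847, 1.91 ± 0.174 for P2ry4 and 0.902 ± 0.444 for D630024D03Rik. There, Tlcd2 and Gm27252, Gm27252 and Tcim, and Tcim and Gm9847 were not separated beyond their spread.

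The next comparison asked whether genes near the members on the chromosome also differed. Within 100 kb of the 7 members, 51 other genes are annotated and 23 were tested. Of these, 1 passed the test upward and 1 downward, in a table where 3.80% of tested genes passed, 1.89% upward and 1.92% downward. The median log2 difference of the 23 was −0.05, against −0.01 over all tested genes, and the median size regardless of sign was 0.19 against 0.20. Of the 23, 10 were nearest to Tlcd2, 7 to Nrbp2, 2 to P2ry4, 2 to Gm27252, 1 to Tcim and 1 to D630024D03Rik, and none was tested near Gm9847.

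Beside Gm27252, E030018B13Rik passed the test upward. This gene, annotated as protein-coding, lies 17159 bases from Gm27252 on the same strand. Like Gm27252, it is inside the body of Klf13, which is on the opposite strand. Its NCACS livers held only 3 to 27 counts. Its level was 0.564, 0.299, 0.873, 0.0903 and 0.340 CPM in NCACS livers 11 to 15, and 22.6, 0.918, 3.07, 3.75 and 15.6 CPM in CACS livers 16 to 20. The groups did not overlap, but CACS 17 was barely above NCACS 13, and the highest cachectic livers were 16 and 20, as for Gm27252. The log2 fold change was 4.41 ± 0.861 (SE) (adjusted p = 0.0234, Benjamini-Hochberg adjusted in the quasi-likelihood test of edgeR), and with 1 liver left out the call held in 6 of 10 fits. It was lost without NCACS 11, 12, 14 or 15, with adjusted p up to 0.0569 in the same edgeR test. With limma-voom the adjusted p was 0.121. Klf13, a transcription factor gene around Gm27252, was at 53.4 ± 20.8 CPM (SD, n = 5) and 75.6 ± 10.5 CPM and did not pass (log2 0.50 ± 0.247 (SE), adjusted p = 0.267 in the same edgeR test).

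Wdr81, a gene for an endosomal trafficking protein that lies 6998 bases from Tlcd2 on the opposite strand, passed downward. It fell from 59.7 ± 8.27 CPM (SD, n = 5) to 41.3 ± 6.59 CPM with overlapping groups (log2 −0.53 ± 0.130 (SE), adjusted p = 0.0453, Benjamini-Hochberg adjusted in the quasi-likelihood test of edgeR). The call held only without CACS 16 among the 10 fits with a liver left out, with adjusted p between 0.0496 and 0.0992, and it was lost with no filter (adjusted p = 0.0554 in edgeR). Of the remaining neighbours, chosen here after their values were seen, Cpeb4 near D630024D03Rik differed by −0.71 ± 0.296 (adjusted p = 0.192) and Puf60 near Nrbp2 by 0.13 ± 0.0771 on the log2 scale (adjusted p = 0.338, same edgeR test).

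**Figure D3:**
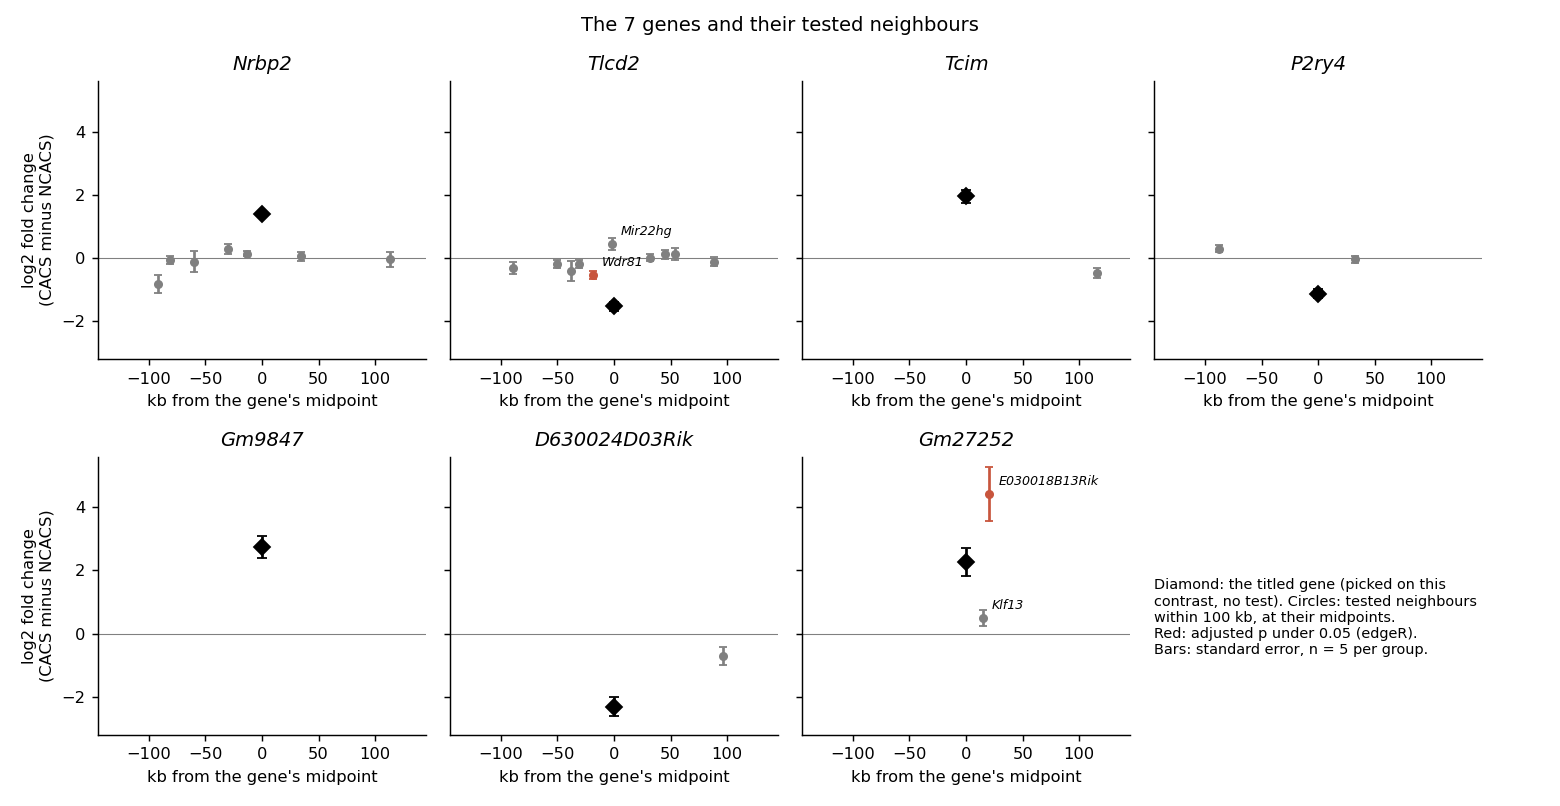
Log2 fold change (CACS minus NCACS, bars SE, n = 5 per group) of each of the 7 genes (diamond) and of the tested genes within 100 kb (circles), against the distance between midpoints in kb. E030018B13Rik (4.41) and Wdr81 (−0.53), in red, passed the edgeR test, and the other neighbours lie between −0.83 and 0.50.

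Families and pathways of the 4 protein-coding members were then examined in lists of related genes, without the members themselves. Over all lists, 2 of 72 tested genes rose and 2 fell, against 1.89% upward and 1.92% downward over all tested genes. At an unadjusted p under 0.05 there were 20 of the 72, where 21.6% of all tested genes had one. In the NRBP, TSC22D and WNK list, 1 of 10 genes rose and none fell, with a median log2 difference of 0.17. In the TLC domain list of TLCD, TRAM and ceramide synthase genes, none of 12 passed the edgeR test and 3 had an unadjusted p under 0.05, with a median of 0.01. Of 28 purinergic receptors, nucleotidases and nucleoside transporters, 1 rose and 1 fell (median −0.11). Of 22 Wnt and β-catenin genes, none rose and 1 fell (median −0.17).

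Wnk4, a kinase of the WNK family that regulates ion transport, rose. Its level was 2.64, 3.63, 1.81, 1.99 and 1.91 CPM in NCACS livers 11 to 15, and 3.97, 11.1, 4.01, 7.47 and 10.5 CPM in CACS livers 16 to 20. The groups did not overlap, although CACS 16 and 18 were close to NCACS 12. The log2 fold change was 1.62 ± 0.332 (SE) (adjusted p = 0.0282, Benjamini-Hochberg adjusted in the quasi-likelihood test of edgeR), and with a liver left out the call held in 4 of 10 fits. It was lost without NCACS 11, 13, 14 or 15 or CACS 19 or 20, with adjusted p up to 0.0621 in the same edgeR test. Nrbp1, the paralogue of Nrbp2, was at 58.8 ± 2.4 CPM (SD, n = 5) and 60.6 ± 4.67 CPM (log2 0.04 ± 0.0773, adjusted p = 0.783, same edgeR test).

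P2ry1, a receptor for extracellular ADP, rose from 8.58 ± 2.34 CPM (SD, n = 5) to 17.1 ± 5.69 CPM (log2 0.99 ± 0.248 (SE), adjusted p = 0.0494, Benjamini-Hochberg adjusted in the quasi-likelihood test of edgeR). Its NCACS livers were at 11.3, 9.49, 4.95, 9.09 and 8.06 CPM and its CACS livers at 25.7, 12.3, 19.3, 16 and 12 CPM, without overlap. P2ry1 was higher in cachexia and P2ry4 lower. Entpd5, a nucleoside diphosphatase of the endoplasmic reticulum, fell from 310 ± 50.7 CPM to 201 ± 38.3 CPM with overlapping groups (log2 −0.63 ± 0.157, adjusted p = 0.0494, same edgeR test). With a liver left out, the P2ry1 call held only without CACS 17 (adjusted p 0.0428 to 0.0940) and the Entpd5 call only without NCACS 13 (adjusted p 0.0350 to 0.108). Among 7 other settings the P2ry1 call was lost in 3, with adjusted p up to 0.0589 with limma-voom, and the Entpd5 call in 2, with adjusted p up to 0.0600 with no filter. P2ry2, the other UTP receptor of this family, was at 6.67 ± 2.78 CPM and 6.84 ± 1.87 CPM (log2 0.04 ± 0.283, adjusted p = 0.958, same edgeR test). Per length, P2ry2 and P2ry4 were alike in NCACS livers at 4.10 ± 1.83 and 4.05 ± 0.590 TPM, whereas in CACS livers they were at 4.32 ± 1.25 and 1.91 ± 0.174 TPM.

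Lgr5, a receptor for R-spondin that marks hepatocytes near the central vein, fell from 7.12 ± 1.02 CPM (SD, n = 5) to 4.13 ± 1.03 CPM without overlap (log2 −0.78 ± 0.185 (SE), adjusted p = 0.0408, Benjamini-Hochberg adjusted in the quasi-likelihood test of edgeR). With a liver left out, its call held only without CACS 17 (adjusted p 0.0298 to 0.0842), and it was lost with raw library totals (adjusted p = 0.0628 in edgeR). The list also held Glul, Notum, Cyp2e1, Rgn, Oat and Cyp1a2, likewise genes of hepatocytes near the central vein. Their log2 differences went both ways, at −0.01, 0.11, 0.31, −0.36, −0.47 and −0.55 in that order. None of them passed, with the lowest adjusted p, 0.0774, for Cyp1a2 in the same edgeR test. Cby1, which encodes Chibby, the partner of Tcim named above, differed by −0.07 on the log2 scale and did not pass (adjusted p = 0.765). Nor did Ctnnb1, which encodes β-catenin, at −0.16 (adjusted p = 0.335, same edgeR test). Tlcd1, the paralogue of Tlcd2, was at 36.1 ± 3.63 CPM and 34.9 ± 3.43 CPM (log2 −0.05 ± 0.0983, adjusted p = 0.814, same edgeR test). Per length, Tlcd2 stood above Tlcd1 in both groups, at 114 against 17.2 TPM in NCACS livers and 40.6 against 17.2 TPM in CACS livers. Nrbp1, P2ry2, Tlcd1, Ctnnb1, Cby1 and the genes named with Lgr5 were singled out from their lists after their values were seen.

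**Figure D4:**
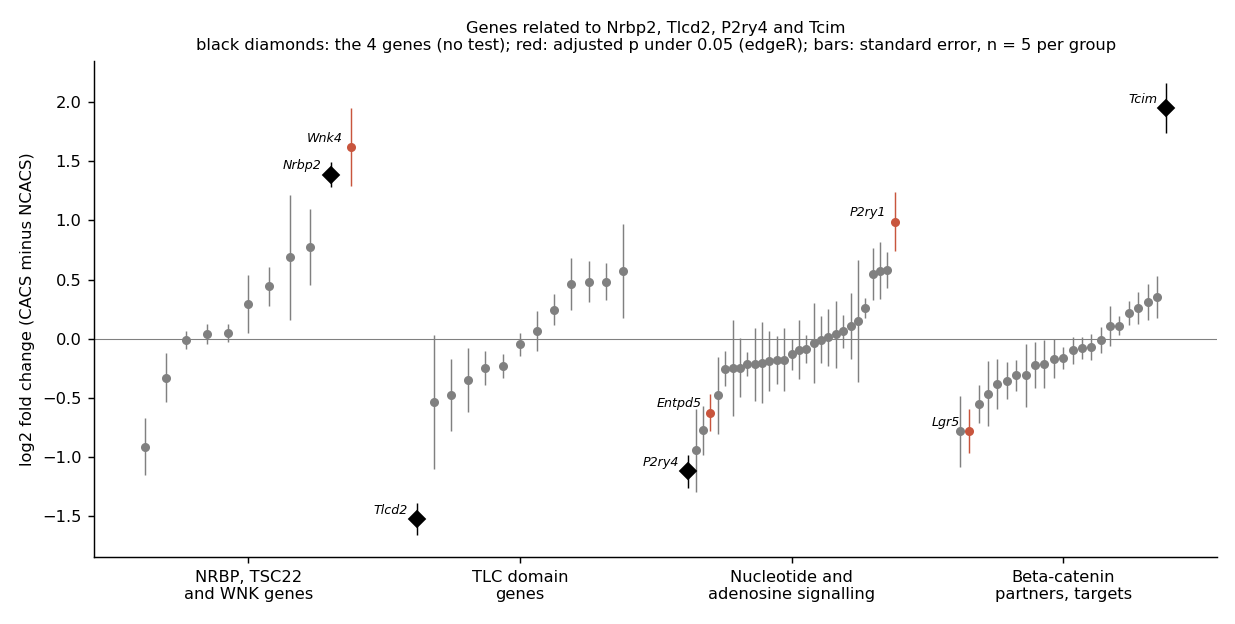
Log2 fold change (CACS minus NCACS, bars SE, n = 5 per group) of the tested genes of the 4 lists, ordered within each list, with the 4 protein-coding members as untested black diamonds. Wnk4 (1.62), P2ry1 (0.99), Entpd5 (−0.63) and Lgr5 (−0.78), in red, passed the edgeR test.

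Weight change inside a group was not used to choose the members. In a fit of each gene on group and on weight change centred within its group, none of the 7 passed the edgeR quasi-likelihood test after adjustment over all genes, where 2 of 14143 genes (0.0141%) did. Without adjustment, 7.62% of tested genes and 1 member, Tlcd2, had p under 0.05. The Tlcd2 slope was −0.0436 ± 0.0163 (SE) on the log2 scale per percentage point of weight change (adjusted p = 0.528), so that level was higher with more loss. Without NCACS 15, the mouse with the most loss in its group, it was −0.0169. The P2ry4 slope was 0.0320 ± 0.0199 (adjusted p = 0.796) and that of Nrbp2 −0.00538 ± 0.0168 (adjusted p = 0.974) in the same edgeR fit. The adjusted p of the other 4 members lay between 0.924 and 0.963. Weight change spans −3 to −14% in the NCACS group and only −29 to −33% in the CACS group, which limits what a slope can show.

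The members did not follow one another closely inside the groups. After centring on group means, the 21 pairwise correlations of log2 CPM over the 10 livers ran from −0.69 to 0.72 with a median of −0.10. The 9 pairs with the same direction in cachexia had a median of 0.26, and the 12 opposite pairs a median of −0.24. Nrbp2 and Gm27252 had the highest value, 0.72, and 0.75 without NCACS 15. Tlcd2 and D630024D03Rik, both lower in cachexia, had the lowest, −0.69, and −0.55 without NCACS 15. Without that liver the lowest pair was D630024D03Rik and Gm27252, which went from −0.30 to −0.70, and 4 of the 21 pairs changed sign, among them Tlcd2 and Gm27252 from −0.24 to 0.26. These are descriptions over livers that share depth and scaling.

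**Figure D5:**
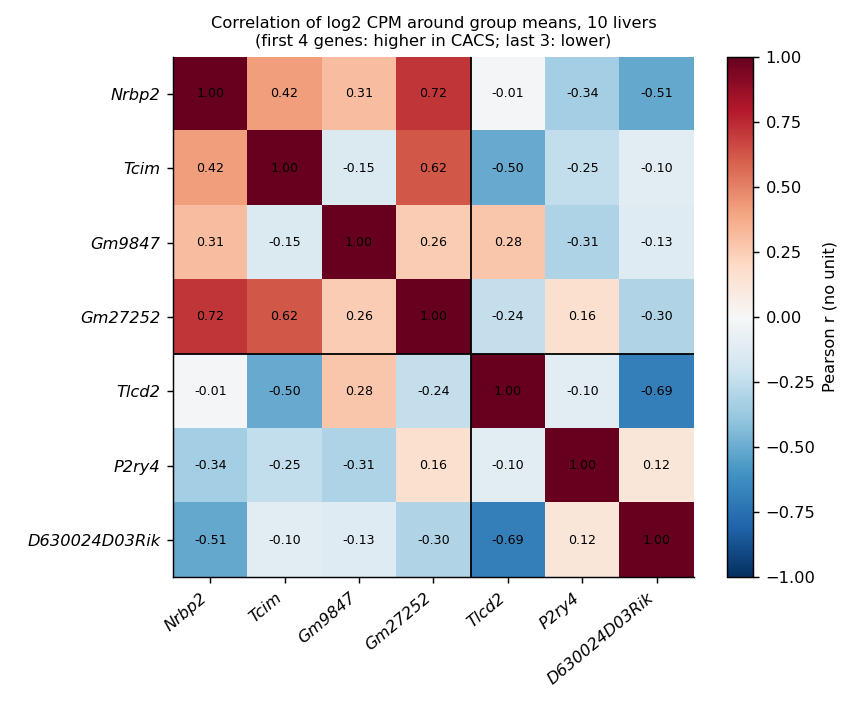
Pearson correlation, by colour and number, of group-centred log2 CPM for each pair of the 7 genes over the 10 livers, with the 4 genes that were higher in CACS livers before the 3 that were lower. Values off the diagonal run from −0.69 (Tlcd2 and D630024D03Rik) to 0.72 (Nrbp2 and Gm27252).

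Among 9235 tested genes with a mean of at least 5 CPM, those whose group-centred levels were most like each member over the 10 livers were listed by Pearson r. For Nrbp2 they were Csf2rb (0.96), Tsku (0.93) and Ano10 (0.93). For Tcim they were Srgn (0.89), Ints6l (0.88) and Itpripl2 (0.85), and for Tlcd2 they were F9 (0.95), Psip1 (0.93) and Arl1 (0.93). P2ry4 was most like Slc25a11 (0.94), Prdm9 (0.92) and Cox8a (0.92). Gm9847 was most like Lipe, Socs2 and Wdr7, each at 0.96. Of these, Socs2 is the gene whose sequence Gm9847 copies, and since the genes may share reads, its place here is not independent information. D630024D03Rik was most like Dennd3 (0.93), Tmem144 (0.91) and Xkr9 (0.86), and Gm27252 was most like Iqsec2 (0.94), Gm9843 (0.91) and Slc19a1 (0.91). These genes are named for likeness in 10 livers only, with no test.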

How the data were processed

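Liver RNA of 10 KL mice was sequenced as single-end reads of 100 bases from TruSeq stranded poly(A) libraries. Per the labels, the authors aligned reads to GRCm38 with STAR 2.4.1d and counted them per gene with HTSeq 0.6.1, and the deposited values are raw counts with no normalization. The annotation release, the strand setting and the treatment of multi-mapping reads are not given in the sources used here, so antisense, overlapping and near-identical genes are uncertain. All columns of the table were used.

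Part of the genotype shared by all mice is not reported here. Groups, mouse numbers and weight changes came from the labels, which give no batch and no shared numbers between groups. Each library is from 1 mouse, and chi-square statistics of counts between livers of the same group were at least 46.1 times their degrees of freedom, so no library was a duplicate. Symbols, positions and exonic lengths came from GENCODE M21 on GRCm38, which lacked 1081 identifiers, and promoters from RefSeq GRCm38.p6. Depth was 31459179 to 40746178 counts per liver. Counting precision therefore ranged widely, from 10 counts in the lowest liver of Gm9847 to 8417 in the highest of Nrbp2. The spreads given for counting alone cover counting error only.

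Counts were filtered with filterByExpr, scaled by TMM and fitted in edgeR 4.0.16 (R 4.3.3) with the quasi-likelihood test, Benjamini-Hochberg adjustment over all 14143 genes and a threshold of 0.05. A second fit added weight change centred within each group. Log2 fold changes are CACS minus NCACS. Scripts were tested on simulated data. The study's own DESeq2 analysis, with batch correction, included livers that were not analysed here.

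The 7 members and all lists and motifs were chosen with earlier results of these data known. Named genes were the members, neighbours within 100 kb that overlap a member or pass the threshold, related-list genes past the threshold, and the 3 genes most alike each member. Others are named as chosen after their values were seen. Alternatives were no filter, a minimum of 10 counts per liver, unadjusted totals, RLE or upper-quartile scaling, DESeq2 1.42.0, limma-voom (limma 3.58.1), neighbour distances of 50 and 200 kb, and leaving out each liver in turn.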

Additional observations from a re-analysis of the deposited data

Results flagged for a closer look

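In Tlcd2, NCACS 15 lay far above the other 4 NCACS livers. In log2 CPM, its gap to the nearest of them was 0.866 of the whole range of the group, over Dixon's critical value of 0.71 for 5 samples. Its level was 124 CPM against 82.0 to 86.7 CPM in the others, away from the CACS livers, so that the separation of the groups did not rest on it. The same liver had the lowest Dbp level, 1.27 CPM, and the most weight loss of its group, and the part of either was not tested.

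In D630024D03Rik, CACS 17 lay above the other CACS livers at 0.997 CPM against 0.401 to 0.522 CPM. In log2 CPM this was a gap of 0.718 of the range. Counts behind these values were 38 in CACS 17 and 14 to 17 in the others. In all, 14 groups of 5 livers were examined in this way and 2 stood out, where chance gives about 1 in 20.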

How the results depend on the processing

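The direction and non-overlap of the 7 members held in all 13 alternatives in which overlap was examined. Most of these left out 1 liver, which cannot make separate groups overlap except by slight rescaling. The members were also picked for non-overlap, so this result is a description and lends no support. Each log2 difference moved by less than the spread between livers in each of 17 alternatives. With 1 liver left out the log2 differences ranged from 1.34 to 1.45 for Nrbp2, −1.59 to −1.39 for Tlcd2, 1.81 to 2.12 for Tcim, −1.17 to −1.05 for P2ry4, 2.55 to 2.97 for Gm9847, −2.63 to −2.19 for D630024D03Rik and 1.86 to 2.47 for Gm27252.

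Numbers of calls among other genes were less stable, although the Socs2 call held in every fit examined. All genes past the threshold numbered 538, against 1386 with DESeq2 and 178 (without NCACS 11) to 519 with 1 liver left out, a fall of over 1.5 times for each liver but CACS 17 and 18. Upward calls were 267, against 173 with no filter, 672 with DESeq2 and 79 to 246 with 1 liver left out. Downward calls were 271, against 714 with DESeq2 and 96 to 273. The 2 neighbours called became 1 with no filter, with at least 10 counts in every liver or with limma-voom, 4 with DESeq2, and 0 to 2 with 1 liver left out. The 4 related genes called became 1 with raw library totals, 9 with DESeq2 and 0 to 3 with 1 liver left out. The 2 genes with a slope on weight change became 33 with no filter, 163 with DESeq2 and 0 to 6 with 1 liver left out. The causes were not tested. Slopes changed sign with 1 liver left out for Nrbp2 (−0.0171 to 0.00170), Tcim (−0.0223 to 0.0428), D630024D03Rik (−0.00299 to 0.0730) and Gm27252 (−0.0161 to 0.0915), the last 3 without NCACS 15. No paired analysis was possible because mouse numbers differ between the groups. Low counts limit Gm9847 and D630024D03Rik most.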
